A study of Mus musculus with 6 samples.

Results

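The small intestine packs dietary fat for export. Enterocytes, the absorptive cells of its lining, rebuild absorbed monoacylglycerol and fatty acids into triacylglycerol, and the enzymes for this step and the proteins that load the lipid into chylomicrons are the subject here. The 10 genes are Mttp, Sar1b and Cideb for assembly and export, Dgat1, Dgat2, Mogat2 and Lpin2 for synthesis, Plin3 for the lipid droplet, and Pnpla2 and Mgll for the lipases. They were chosen by name for their known roles from the 19616 genes of the deposited table, with the apolipoproteins left out. Earlier results of these data were known when they were chosen. All 10 were among the 15618 genes that passed the filter on low counts and were tested.

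RNA-Seq was done on jejunal intestinal epithelial cells (IEC), enriched by EDTA, from 3 control mice (C1, C3 and C3-3) and 3 Hdac1/2-deleted mice (H1, H5 and H9), all 3 months old, with 1 library per mouse. The labels give the control genotype as wildtype and the other as villin-Cre Hdac1-/-; Hdac2-/-. In the second group the villin promoter drives Cre in the intestinal epithelium only, so the deletion of both histone deacetylase genes is aimed at these cells and not at others that an IEC preparation can carry. All mice were on a mixed C57BL/6J, 129SV and CD1 background.

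Triacylglycerol is made in the enterocyte by the monoacylglycerol route, in which MOGAT2 adds a fatty acid to monoacylglycerol, and by the glycerol phosphate route, in which a lipin removes the phosphate from phosphatidic acid. Both yield diacylglycerol, to which DGAT1 or DGAT2 adds the last fatty acid. MTTP then transfers lipid to apolipoprotein B in the endoplasmic reticulum, and the particles leave it in COPII carriers whose formation SAR1B starts. Triacylglycerol that is not exported is held in droplets coated by perilipins and is broken down by lipases such as PNPLA2 and MGLL.

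Expression is given as CPM, the read count of a gene made comparable between libraries by their TMM-adjusted totals, and means carry the SD over n = 3 mice. A gene was called increased or decreased at an adjusted p of at most 0.05 (edgeR quasi-likelihood test) and a difference of at least 2-fold. Of all genes tested, 12.4% were increased and 12.7% decreased in Hdac1/2-deleted IEC, while 20.5% were higher and 20.3% lower at that adjusted p whatever the fold.

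Total counts were between 58017009 and 65902344 in control mice and between 36111035, in H5, and 65230566 in Hdac1/2-deleted mice, so that 3 counts correspond to 0.0405 to 0.079 CPM. These limits cover counting error only. Hdac1 counts ranged from 1916 to 2596 in controls and from 96 to 296 in Hdac1/2-deleted mice (log2 fold change -3.43, standard error 0.26, adjusted p = 2.9e-05). The transcript counted on Hdac2 was not lower beyond the spread between mice (-0.18, standard error 0.17, adjusted p = 0.44), so it does not check the label. C3 was the only library with more than 13 counts on 4 Y-linked genes, with 3082, and Acta2 and Des, markers of smooth muscle, were at 11.1 to 14.1 CPM in C1 and C3 and below 0.7 CPM in the other 4 libraries.

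The summed level of the 10 enterocyte markers was 25930 to 35000 CPM in controls and 18160 to 23480 in Hdac1/2-deleted mice, with no overlap. Of these markers 6 were decreased, including the brush border enzymes Lct and Dpp4, while 1, the alkaline phosphatase Alpi, was increased. The shares of all genes tested were 12.7% decreased and 12.4% increased. The sums of 8 pan-epithelial markers overlapped, at 12580 to 14850 and 10400 to 13040 CPM. Fewer cells of a type and less RNA per cell cannot be told apart in bulk libraries. Of 8 adipocyte markers, Adipoq, Plin1, Lep, Cfd and Retn were not among the rows of the table, Fabp4 was at 0 to 12 counts per library, and the summed level, which came from Cidec and Lipe, was 290.2 to 353.2 CPM in controls and 182 to 223 in Hdac1/2-deleted mice.

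Lpin2 and Pnpla2 had the largest declines of the 10 genes, and the start regions of both are shown so that their base composition can be seen beside these values. The sequences are the 250 bases before a RefSeq transcription start in GRCm38.p6, in the direction of transcription, and the capitals mark CpG dinucleotides. Both windows of Lpin2 shown, and that of Pnpla2, hold no annotated exon base. A further Lpin2 window, chr17:71183728-71183977, overlaps 17 exon bases and is not printed. The bases after its start, and after that of the second Lpin2 window below, match an annotated transcript of the gene. Those after the starts of the first Lpin2 window and of Pnpla2 do not, so their direction rests on the annotated strand alone.
Lpin2, chr17:71183282-71183531, plus strand: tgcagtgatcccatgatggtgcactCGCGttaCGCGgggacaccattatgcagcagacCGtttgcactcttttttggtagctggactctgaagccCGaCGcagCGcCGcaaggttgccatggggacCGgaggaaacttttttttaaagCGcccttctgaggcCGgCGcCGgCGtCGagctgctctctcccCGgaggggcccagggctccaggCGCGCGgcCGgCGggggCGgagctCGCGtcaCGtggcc
Lpin2, chr17:71204404-71204653, plus strand: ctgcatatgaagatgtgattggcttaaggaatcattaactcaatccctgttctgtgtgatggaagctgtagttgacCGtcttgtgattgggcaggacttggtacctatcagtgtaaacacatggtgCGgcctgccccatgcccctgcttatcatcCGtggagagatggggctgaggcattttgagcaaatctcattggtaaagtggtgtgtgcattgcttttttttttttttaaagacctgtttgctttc
Pnpla2, chr7:141454938-141455187, plus strand: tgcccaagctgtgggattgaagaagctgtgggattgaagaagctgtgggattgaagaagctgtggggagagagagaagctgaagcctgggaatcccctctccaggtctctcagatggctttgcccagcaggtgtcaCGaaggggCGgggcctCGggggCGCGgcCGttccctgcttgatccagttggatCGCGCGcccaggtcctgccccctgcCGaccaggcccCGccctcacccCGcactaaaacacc

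The first Lpin2 window holds 26 CpG, more than 90.4% of the 32851 mouse promoter windows of this length, whose median was 6. The second, at a start further into the gene, holds 3, more than 29% of windows. The Lpin2 window not printed holds 50, more than 99.9%, at a GC content of 83.2%. The Pnpla2 window holds 12, more than 66.5%. Of the other genes, Mttp held 25 and the Mgll windows 23 and 40, while Cideb held 6, Plin3 7 and Sar1b 9. Those of Mttp and Mgll lie largely in annotated exons. A link of CpG content to the fold changes was not tested. Promoter windows were found for 7 of the 10 genes and not for Dgat1, Dgat2 and Mogat2. The letters TATAAA, searched on both strands, occur in 12.4% of all windows and, of the windows of these 7 genes, only in that of Cideb, 172 bases before the start. The letters AGATAA, found in 9.99% of all windows, were in none of them, and neither were CAAAGTCCA, found in 0.384%, or AAAGGTCA, found in 1.34%. These matches describe letters within these windows and say nothing of binding.

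The question put to these libraries is which of the enzymes differ between control and Hdac1/2-deleted IEC. Lpin2 was decreased 2.593-fold and was the only one of the 10 genes called. Pnpla2, Dgat1 and Sar1b were lower at the adjusted p limit but by less than 2-fold. Mttp, Cideb, Dgat2, Mogat2, Plin3 and Mgll did not pass. The median log2 fold change over the 10 genes was -0.51, against -0.01 over all genes tested. Thus 1 of 10 was decreased and 4 of 10 were lower at any fold, where 12.7% and 20.3% of all genes were, and none was increased or higher at any fold. The groups did not overlap for 4 genes that were lower and 1 that was higher in Hdac1/2-deleted mice, beside 26.6% and 26.7% of all genes.

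**Figure D1:**
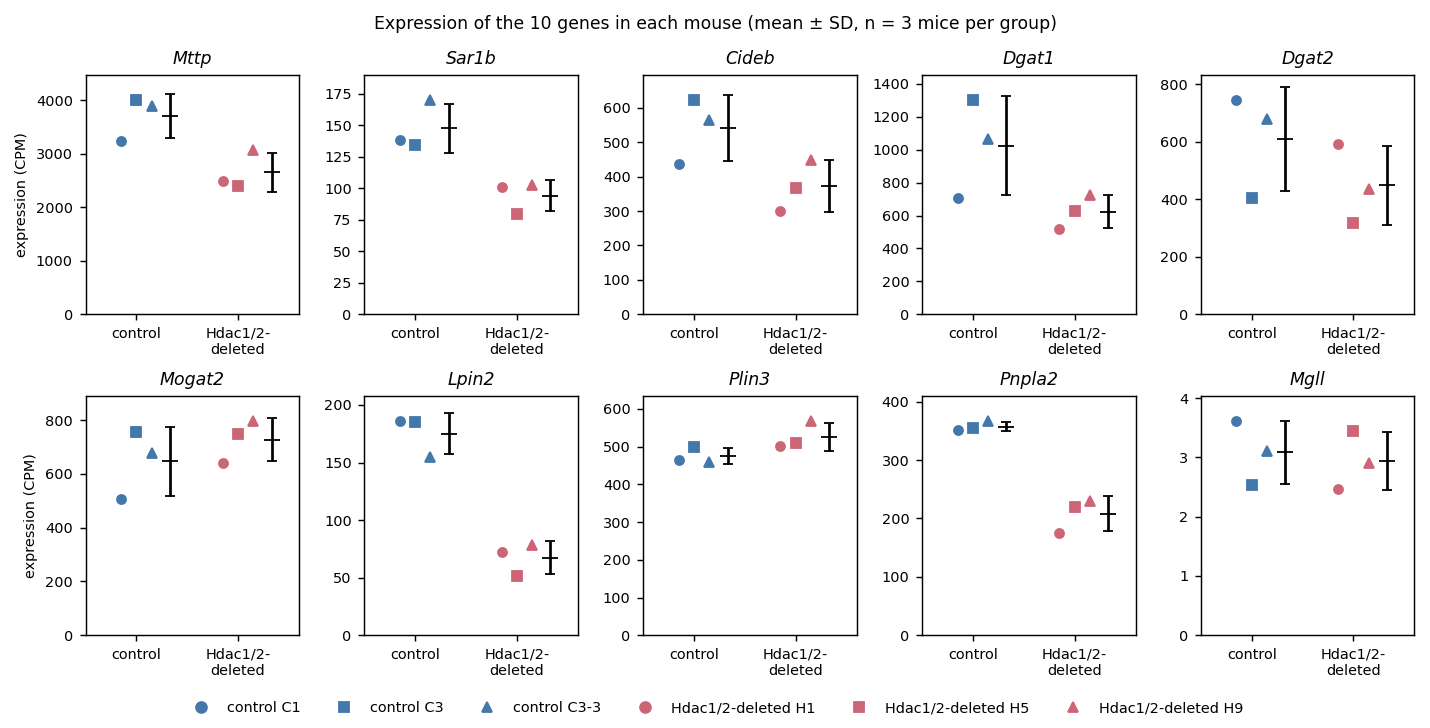
Expression of the 10 genes in CPM (vertical axes, each from 0) in each of 3 control (blue) and 3 Hdac1/2-deleted mice (red); black bars are the mean ± SD. Lpin2 lay between 154.4 and 185.8 CPM in controls and between 51.1 and 78.58 in Hdac1/2-deleted mice, whereas the Mogat2 and Mgll ranges overlapped.

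The plot of expression by mouse shows 3 kinds of picture. In Lpin2, Pnpla2, Sar1b and Mttp every Hdac1/2-deleted mouse lay under every control. In Cideb, Dgat1 and Dgat2 the means were lower but control mice with low values lay inside the range of the other group. Mogat2 and Plin3 had higher means and Mgll a nearly equal one, none of them past the test.

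**Figure D2:**
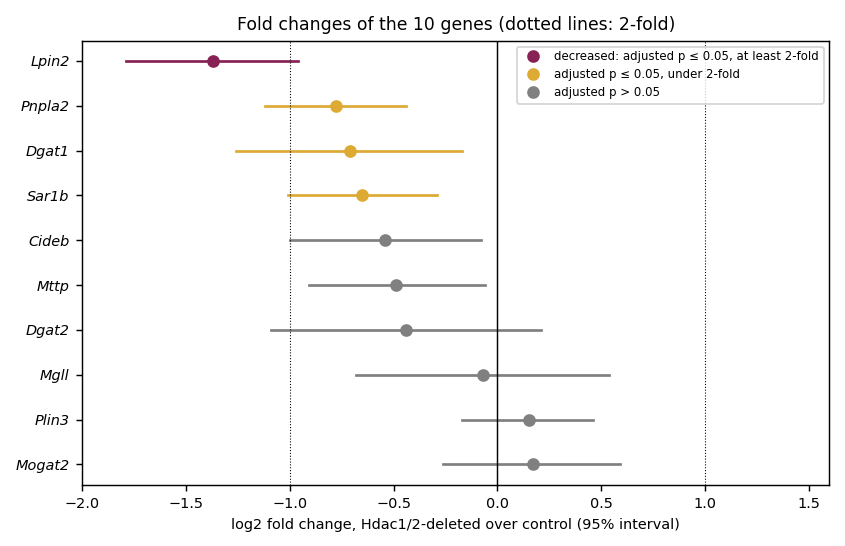
Log2 fold change of Hdac1/2-deleted over control (horizontal axis) for each of the 10 genes, with lines for the 95% interval and dotted lines at 2-fold. Lpin2, at -1.37 (-1.79 to -0.96), is the only gene past the 2-fold limit, and the intervals of Dgat2, Mgll, Plin3 and Mogat2 include 0.

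The plot of fold changes with their intervals separates genes whose interval lies below 0 from those that include it. The lower 95% bound is -1.01 for Sar1b, -1.12 for Pnpla2 and -1.26 for Dgat1. A 2-fold decrease of each thus lies within what these data allow.

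Mttp encodes the large subunit of the microsomal triglyceride transfer protein, without which apolipoprotein B is not lipidated. It had 3242, 3998 and 3891 CPM in C1, C3 and C3-3, and 2496, 2392 and 3064 CPM in H1, H5 and H9. Each Hdac1/2-deleted mouse was below each control, but the difference did not pass the test (log2 fold change -0.49, 95% interval -0.91 to -0.06, adjusted p = 0.068). Mttp alone made up 47.84 to 48.42% of the counts of the 10 genes in control mice and 44.98 to 47.5% where Hdac1/2 were deleted. The 10 genes together amounted to 6776, 8258 and 8037 CPM in C1, C3 and C3-3 and to 5397, 5318 and 6451 CPM in H1, H5 and H9, a sum that moves largely with Mttp. Mttp (ENSMUSG00000028158) lies on chromosome 3 from 138089854 to 138144968, minus strand, of GRCm38. Of its 6206 exon bases 589 overlap Trmt10a and the antisense gene Gm43691 on the opposite strand. Trmt10a was increased but low, from 1.723 ± 0.7053 to 5.574 ± 1.200 CPM.

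Sar1b encodes the GTPase that recruits the COPII coat and is needed for chylomicrons to leave the endoplasmic reticulum. Its level was 138.1, 134.7 and 169.9 CPM in the control mice C1, C3 and C3-3, and 100.6, 79.66 and 102.2 CPM in H1, H5 and H9. No Hdac1/2-deleted mouse reached the lowest control, and Sar1b was lower by less than 2-fold (log2 fold change -0.65, standard error 0.16, adjusted p = 0.01). Sar1b (ENSMUSG00000020386) lies on chromosome 11 from 51763687 to 51791925, plus strand, with no overlapping gene.

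Cideb encodes a protein of droplets and the endoplasmic reticulum that takes part in lipidating lipoprotein particles. It was at 435.5, 622.5 and 565.6 CPM in the controls and at 299.3, 368.2 and 449.5 CPM in H1, H5 and H9. H9 was above C1, and the difference did not pass (log2 fold change -0.54, standard error 0.20, adjusted p = 0.059). Cideb (ENSMUSG00000022219) lies on chromosome 14 from 55754050 to 55758458, minus strand, and shares 1136 of its 1488 exon bases with Nop9 on the opposite strand. Nop9 was increased, from 19.34 ± 1.235 to 40.19 ± 5.07 CPM (log2 fold change 1.05, adjusted p = 6.5e-04). The library kit marks strand, but the strand setting used in counting is not given in the sources used here, so the Cideb value remains uncertain in this respect.

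DGAT1 and DGAT2, enzymes of unrelated sequence, catalyse the same last step of triacylglycerol synthesis. Dgat1 had 704.6, 1301 and 1066 CPM in C1, C3 and C3-3 and 519.1, 630.4 and 723.3 CPM in H1, H5 and H9. H9 exceeded C1, and Dgat1 was lower by less than 2-fold (log2 fold change -0.71, standard error 0.24, adjusted p = 0.04). Without C3, which had the highest value, the change was -0.50 with an adjusted p of 0.12. The call was also lost without C3-3 and without each of the Hdac1/2-deleted mice, with log2 fold changes of -0.92 to -0.50 over all 6 omissions. Dgat1 (ENSMUSG00000022555) is on chromosome 15 from 76502015 to 76511953, minus strand.

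Dgat2 was at 744.5, 402.9 and 680.3 CPM in C1, C3 and C3-3 and at 591.2, 317.7 and 437.2 CPM in H1, H5 and H9. The groups overlapped widely, and the change of -0.44 had a 95% interval from -1.09 to 0.21 (adjusted p = 0.25), wide enough to hold a decrease of 2-fold. In each group the mouse with the lowest Dgat1, C1 and H1, had the highest Dgat2. The ratio of Dgat1 to Dgat2 counts was 0.9464, 3.229 and 1.567 in the control mice, a 3.41-fold range, and 0.878, 1.984 and 1.654 in the Hdac1/2-deleted mice.

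MOGAT2 is the intestinal acyltransferase that starts the monoacylglycerol route. Mogat2 was at 506.3, 757.1 and 679.5 CPM in controls and at 639.5, 747.4 and 795.6 CPM in H1, H5 and H9. The groups overlapped (log2 fold change 0.17, 95% interval -0.26 to 0.59, adjusted p = 0.51), and the interval excludes a 2-fold difference either way. Dgat2 (ENSMUSG00000030747; chromosome 7, 99153658 to 99182719) and Mogat2 (ENSMUSG00000052396; chromosome 7, 99219084 to 99238619) are neighbours of 1 gene family on the minus strand, 36364 bases apart with 0 protein-coding genes between them.

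Lpin2 encodes a phosphatidate phosphatase, which forms diacylglycerol in the glycerol phosphate route. Its level was 185.8, 184.8 and 154.4 CPM in C1, C3 and C3-3 and 72.74, 51.1 and 78.58 CPM in H1, H5 and H9. The highest Hdac1/2-deleted mouse was far below the lowest control, and Lpin2 was decreased (log2 fold change -1.37, standard error 0.18, adjusted p = 5.0e-04). With any single mouse omitted it stayed between -1.49 and -1.20. Lpin2 (ENSMUSG00000024052) lies on chromosome 17 from 71182560 to 71249817, plus strand, and 13 transcripts are annotated, so its exon length of 12233 bases and hence its level per length depend on the annotation. The 3 genes whose profile over the 6 libraries was nearest to that of Lpin2, by the root mean square difference of log2 CPM after the control mean was subtracted, were Adck3 (0.06453), 4833418N02Rik (0.08808) and Slc25a36 (0.08898).

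Plin3 encodes a perilipin that coats newly formed droplets. It had 464.6, 499.8 and 460.3 CPM in controls and 500.4, 508.4 and 566.9 CPM in H1, H5 and H9. The groups did not overlap, but C3 and H1 were almost equal, and the change of 0.15 did not pass (95% interval -0.17 to 0.46, adjusted p = 0.44). Plin3 (ENSMUSG00000024197) is on chromosome 17 from 56277476 to 56292873, minus strand.

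Pnpla2 encodes adipose triglyceride lipase, which removes the first fatty acid from stored triacylglycerol. Its 3 control values of 351.3, 354.3 and 366.3 CPM were close together, and H1, H5 and H9 had 175.1, 219.7 and 230.4 CPM. All Hdac1/2-deleted mice lay well below the controls, and Pnpla2 was 1.714-fold lower, under the 2-fold limit (log2 fold change -0.78, standard error 0.15, adjusted p = 0.0033). Pnpla2 (ENSMUSG00000025509) is on chromosome 7 from 141455198 to 141460743, plus strand.

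Mgll encodes monoacylglycerol lipase, which completes this breakdown. It was the least abundant of the 10 genes, with 131 to 239 counts per library, or 3.608, 2.539 and 3.105 CPM in controls and 2.47, 3.449 and 2.91 CPM in H1, H5 and H9. The groups overlapped (log2 fold change -0.07, 95% interval -0.68 to 0.54, adjusted p = 0.86), and its sign turned under library total scaling. Mgll (ENSMUSG00000033174) lies on chromosome 6 from 88724412 to 88828360, plus strand, and 167 of its 5077 exon bases overlap the antisense gene Gm26588, which had at most 6 counts per library.

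Levels of different genes were compared per length, as RPKM, the CPM divided by the length of annotated exon in kilobases. In control IEC Mttp led with 597.8 ± 65.97 RPKM. Cideb (363.7 ± 64.4), Mogat2 (352.9 ± 69.98) and Dgat1 (335.1 ± 98.32) followed and differed from each other by less than their SD, and Dgat2 had 197.6 ± 58.88 RPKM. Plin3, Pnpla2 and Sar1b were near each other at 125.4 ± 5.716, 118.3 ± 2.619 and 117.6 ± 15.47 RPKM, with Lpin2 at 14.31 ± 1.459 and Mgll at 0.6075 RPKM. In Hdac1/2-deleted IEC Mttp still stood first at 427.2 ± 58.29 RPKM, followed by Mogat2 at 396.5 ± 43.55, within the spread of Mttp, and then by Cideb at 250.2 ± 50.52 and Dgat1 at 204.3 ± 33.47. Plin3 (138.7 ± 9.59 RPKM) was close to Dgat2 (145.5 ± 44.47), and both were above Sar1b (75.04 ± 10.03) and Pnpla2 (69.01 ± 9.706). The order of these levels was not tested.

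The ratio of the counts of a pair of genes within each library does not depend on how libraries are scaled. For 10 such pairs, 5 ratios did not overlap between the groups. Each of these had p = 0.10 in a two-sided exact permutation test, the smallest that 3 mice against 3 can give, and an adjusted p of 0.20 over the 10 pairs, so none passed. The ratio of Plin3 to Plin2, another perilipin, was 3.638, 3.714 and 3.861 in control mice and 9.67, 8.56 and 9.014 in Hdac1/2-deleted mice. This was the tightest of the ratios within groups. Sar1b counts were 2.403, 2.523 and 2.922 times those of its close paralogue Sar1a in controls and 1.491, 1.223 and 1.546 times in Hdac1/2-deleted mice. How reads shared by such paralogues were counted is not given in the sources used here.

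Mogat2 was 84.9, 172.3 and 140 times as abundant in counts as Gpam, the mitochondrial acyltransferase that opens the glycerol phosphate route, in controls and 46.04, 66.96 and 70.83 times in Hdac1/2-deleted mice. The ratio of Pnpla2 to Mgll was 97.35, 139.6 and 118 against 70.9, 63.72 and 79.18, and that of Cideb to Plin3 0.9376, 1.246 and 1.229 against 0.5982, 0.7242 and 0.7929. All of these were lower in every Hdac1/2-deleted mouse. In the other 5 pairs the groups overlapped. Mttp and P4hb, which encode both subunits of the transfer protein, had a log2 ratio that differed by -0.27 (exact permutation p = 0.20). Dgat1 and Dgat2 (-0.24, p = 0.80), Lpin2 and Lpin3 (-0.36, p = 0.40), Mogat2 and Dgat2 (0.62, p = 0.30) and Dgat2 and Pnpla2 (0.35, p = 0.50) likewise overlapped by the same exact test.

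**Figure D3:**
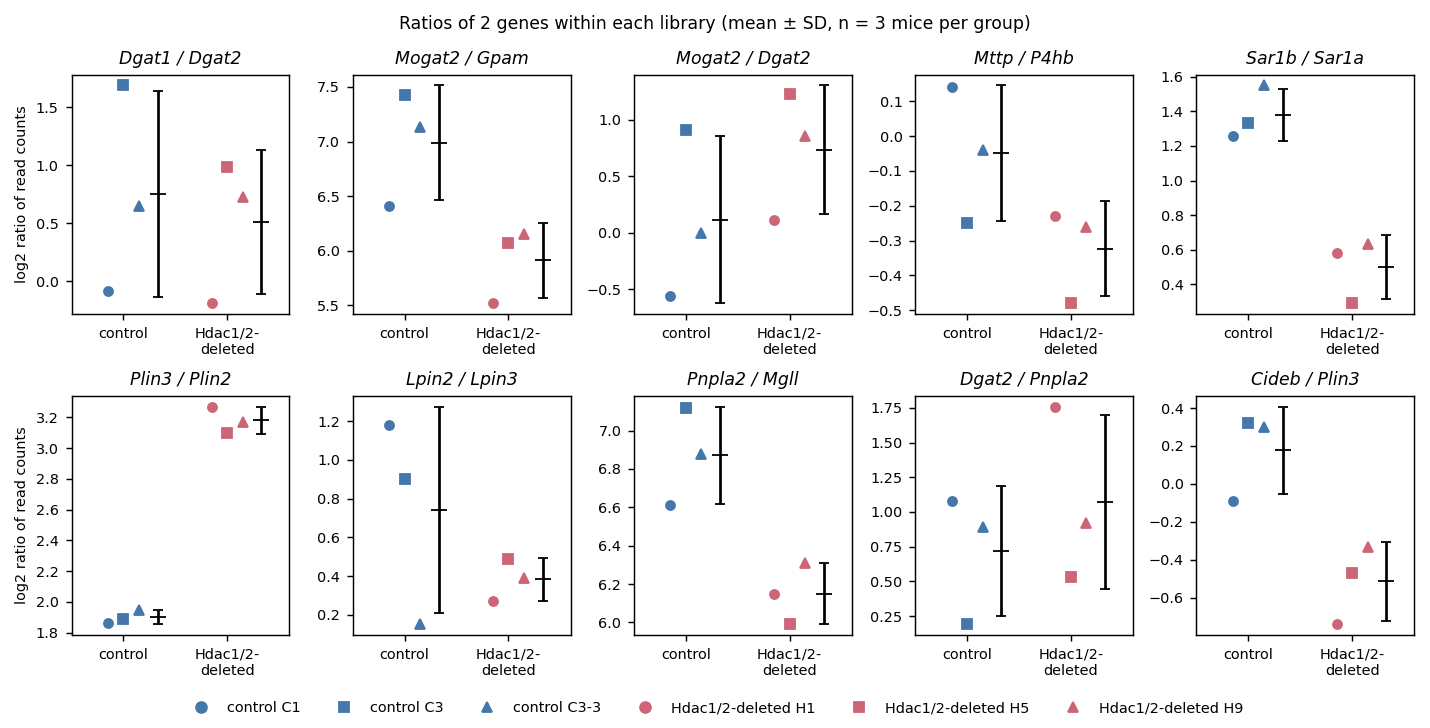
Log2 ratio of the read counts of 2 genes within each library (vertical axes, not starting at 0) for 10 pairs in 3 control (blue) and 3 Hdac1/2-deleted mice (red), with mean ± SD in black. The Plin3 to Plin2 ratio lies at 1.86 to 1.95 in controls and at 3.10 to 3.27 in Hdac1/2-deleted mice, while the Dgat1 to Dgat2 ratio overlaps.

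The plot of ratios within libraries shows the spread that each pair has among mice of 1 group. The pairs with Dgat2 spread widely in both groups, whereas Plin3 to Plin2 hardly varied within a group.

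Lpin2 and Plin3 belong to families with other members in these cells. The 3 lipins summed to 43.6 ± 6.6 RPKM in controls and to 21.5 ± 5 RPKM in Hdac1/2-deleted mice, without overlap. Lpin3 was decreased (log2 fold change -1.03, adjusted p = 0.011) and Lpin1 was increased (2.10, adjusted p = 5.1e-04). Lpin2 made up 24.9 to 40.3% of the lipin sum in controls and 24.3 to 26.4% in Hdac1/2-deleted mice, ranges that overlap, while Lpin1 went from 0.729 to 1.26% to 6.83 to 11.6%. The perilipins summed to 162 ± 7.4 and 160 ± 9.9 RPKM. Within that sum, Plin3 made up 77.1 to 78.1% in controls and 86.3 to 87.4% in Hdac1/2-deleted mice, and Plin2 21.8 to 22.8% and 9.62 to 10.9%. These sums were computed after the values were seen and are given without a test.

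**Figure D4:**
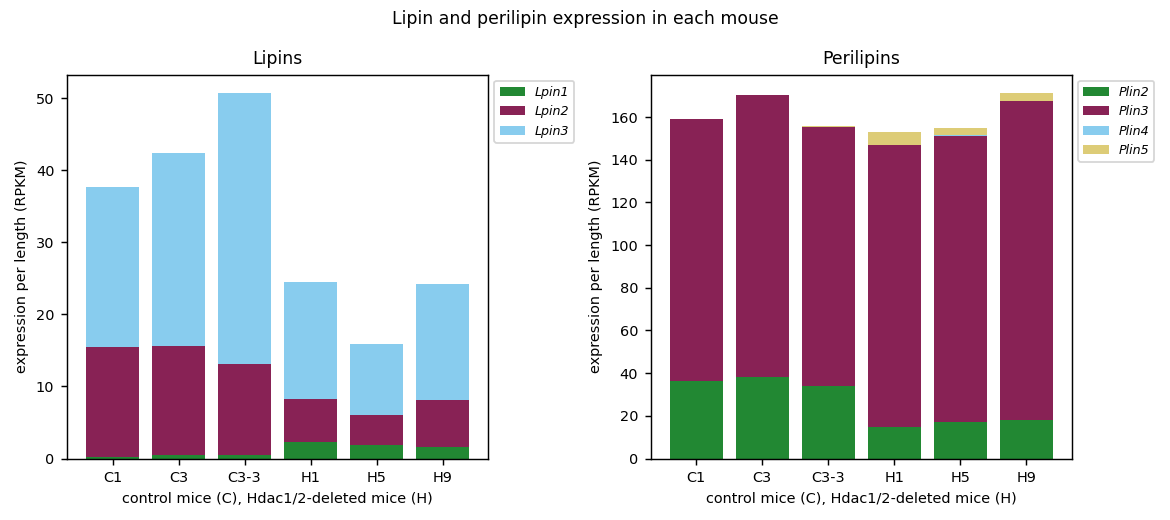
Stacked bars of RPKM (vertical axes, from 0) of the lipins Lpin1 to Lpin3 (left) and the perilipins Plin2 to Plin5 (right) in each control (C) and Hdac1/2-deleted (H) mouse, without error bars since each bar is 1 library. The lipin sum is 37.7 to 50.8 in controls and 15.8 to 24.5 in Hdac1/2-deleted mice, whereas the perilipin sum is 156 to 170 and 153 to 171.

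The plot of family levels shows the lipin bars shorter in Hdac1/2-deleted mice and the perilipin bars of like height with a smaller Plin2 share.

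Around these 10 genes, 60 others of the pathway were listed by step, of which 58 were in the table and 55 were tested. Among them 5 were increased and 10 decreased, where 12.4% and 12.7% of all genes were, a further 3 were higher and 11 lower under 2-fold, and 26 did not pass. Their median log2 fold change was -0.30. Of the 11 genes for fatty acid uptake, binding and activation, 4 were decreased and none was increased. Cd36, a fatty acid transporter, was at 189.9 to 281.4 CPM in controls and 6.66 to 10.57 in Hdac1/2-deleted mice (log2 fold change -4.88, adjusted p = 4.1e-06). Fabp2, the intestinal fatty acid binding protein, fell by 2.13 on the log2 scale, and Acsl4 (-2.24) and Acsl6 (-1.69), which activate fatty acids and were below 5 CPM, were decreased too. Mogat1, the other mouse acyltransferase of the monoacylglycerol route listed, was at 0.2295 to 3.3 CPM and did not pass (log2 fold change 0.34).

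In the glycerol phosphate route 3 of 11 tested genes were increased and 1 was decreased, where 12.4% and 12.7% of all genes were. The median was 0.39. Gpam rose from 5.071 ± 0.8071 to 12.09 ± 1.555 CPM (log2 fold change 1.25, adjusted p = 0.0016), Agpat5, an acyltransferase of the next step, rose by 1.17 on the log2 scale, and Lpin1 and Lpin3 are given above. Gpd1, which makes the glycerol phosphate, was higher under 2-fold (0.92, adjusted p = 0.0078), and Gpat3 and Gpat4, other enzymes of the first acylation, were lower under 2-fold (-0.79 and -0.74). The enzymes of 1 step thus moved in both directions.

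Of 7 droplet proteins tested, Plin2 was decreased (log2 fold change -1.13, standard error 0.13, adjusted p = 2.6e-04) and Plin4 and Plin5 were increased. The shares of all genes were 12.7% decreased and 12.4% increased. Cidec (-0.58), Fitm2 (-0.73) and Bscl2 (-0.86), which act in droplet growth and formation, were lower under 2-fold, and the median of the 7 was -0.73. Plin5, known from tissues that oxidise fat, had 13, 2 and 8 counts in C1, C3 and C3-3 and 943, 291 and 471 counts in H1, H5 and H9 (6.15, adjusted p = 4.5e-05). Plin4 had 3 to 19 counts in controls and 22 to 63 in Hdac1/2-deleted mice (1.93, adjusted p = 0.032). Plin5 made up 2.14 to 3.98% of the perilipin RPKM in Hdac1/2-deleted mice and 0.0101 to 0.0591% in controls.

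The lipases and their cofactors had the lowest median of the steps with more than 1 gene, -1.05. Of the 7 tested, 4 were decreased and none increased, where 12.7% and 12.4% of all genes were. Abhd5, the activator of PNPLA2, was at 20.65 to 27.32 CPM in controls and at 3.633 to 5.364 CPM in Hdac1/2-deleted mice (log2 fold change -2.41, adjusted p = 5.9e-05). Abhd6, a monoacylglycerol hydrolase, was decreased (-1.05, adjusted p = 0.002), as were Aadac (-1.98) and Ces1d (-5.79), which hydrolyse lipid in the endoplasmic reticulum. Ces1d varied from 15.19 to 118.5 CPM among controls and belongs to a cluster of similar carboxylesterase genes, so its counts are uncertain. G0s2, an inhibitor of PNPLA2, did not pass (1.79, adjusted p = 0.08) at 0.05402 to 0.5888 CPM in controls and 0.7965 to 2.2 CPM in Hdac1/2-deleted mice; it is named here because its values stand apart, after they were seen.

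None of the 4 other lipoprotein assembly genes was called. The same held for the 14 genes listed under COPII coat and cargo receptors, here COPII genes for short. Of all genes, 12.4% were increased and 12.7% decreased. Of the assembly genes, Pla2g12b was lower under 2-fold, at 125 to 155.1 CPM in controls and 68.87 to 90.25 CPM in Hdac1/2-deleted mice (log2 fold change -0.87, adjusted p = 0.0023). Tm6sf2 was at 528.4 to 745.1 and 349.6 to 515.2 CPM, without overlap, and did not pass (-0.51, adjusted p = 0.073). Both are known to take part in loading lipid into lipoproteins. P4hb was at 2947, 4765 and 4010 CPM in controls and 2921, 3331 and 3667 CPM in H1, H5 and H9 (log2 fold change -0.24, adjusted p = 0.41). Sar1a was at 53.4 to 58.15 CPM and 65.16 to 67.46 CPM and did not pass (0.23, adjusted p = 0.15). The COPII genes lay between -0.74 and 0.42, with 2 lower and 1 higher under 2-fold.

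**Figure D5:**
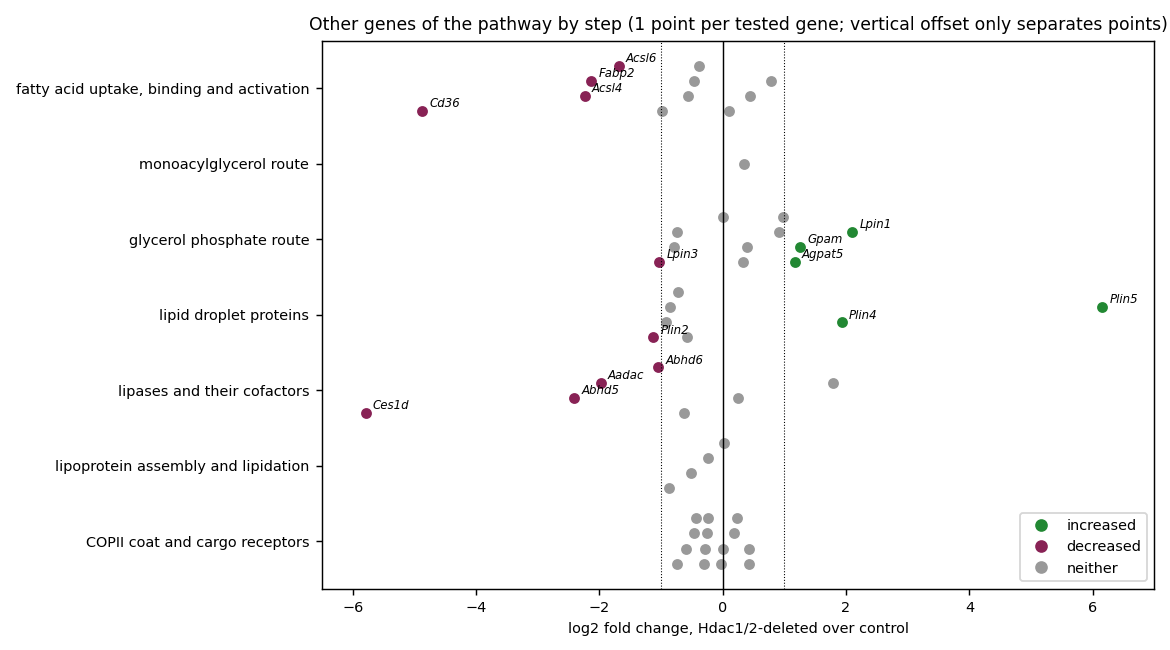
Log2 fold change of Hdac1/2-deleted over control (horizontal axis; dotted lines at 2-fold) of the 55 other tested genes of the pathway, 1 point per gene, in rows by step; green genes were increased, purple decreased, grey neither. The decreased genes lie mainly among uptake and lipases, from -1.03 (Lpin3) to -5.79 (Ces1d), and all 14 COPII genes are grey.

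The plot of the pathway by step shows called genes in the uptake, glycerol phosphate, droplet and lipase rows, and none in the assembly and COPII rows. The lists were chosen with earlier results of these data known, and these counts are descriptions.

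Of 10 transcription factors known to act on genes of this kind, 2 were decreased and 0 increased, where 12.7% and 12.4% of all genes were. Srebf1, a regulator of lipid synthesis, had 463, 287.2 and 536.6 CPM in controls and 128.3, 86.88 and 120.2 CPM in H1, H5 and H9 (log2 fold change -1.94, adjusted p = 5.0e-04). Creb3l3, a factor of liver and intestine, had 791.7, 713 and 945.8 CPM against 356.6, 301 and 424.3 CPM (-1.18, adjusted p = 0.0012). The groups were separate for both factors, with the Hdac1/2-deleted mice lower, as they were for 26.6% of all genes. Nr1h4, the bile acid receptor, was higher under 2-fold (0.86), Hnf4g (-0.88) and Nr1h3 (-0.39) were lower under 2-fold, and the other 5, Hnf4a among them (-0.30, adjusted p = 0.13), did not pass.

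The summed enterocyte markers were lower in Hdac1/2-deleted mice, as given above, and a link to the levels of the 10 genes was not tested. Abundant markers weigh most in that sum. Lct fell from 6645 ± 1947 to 1676 ± 510.8 CPM, while Slc5a1 was near equal (log2 fold change -0.02) and Alpi was increased (1.20). Scaling the libraries to this sum was an alternative chosen after its decline was seen. With it the median of all genes rose to 0.59 and Lpin2 was lower by less than 2-fold (log2 fold change -0.80, adjusted p = 0.0063). On that scale Pnpla2 (-0.18), Dgat1 (-0.09) and Sar1b (-0.04) did not pass, Mttp (0.12), Cideb (0.07) and Dgat2 (0.15) turned sign without passing, and Mogat2 (0.79, adjusted p = 0.003) and Plin3 (0.74, adjusted p = 0.0049) were higher.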

How the data were processed

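Paired-end, strand-marked poly(A) libraries were made from jejunal IEC, 1 for each of 3 control and 3 Hdac1/2-deleted mice. The authors deposited raw counts of reads per gene after alignment with STAR. The paper names GRCm38 and the submitters' processing notes name STAR 2.4.0f1, bcl2fastq 1.8.4 and mm9. The counting tool, its strand setting and the annotation are not given in the sources used here. The authors also deposited a score per sample, the counts times 1 factor and rounded, and their own fold changes, log CPM and p-values from DESeq and edgeR, none of which was used.

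Counts were fitted with edgeR 4.0.16 (R 4.3.3, limma 3.58.1): filterByExpr left 15618 genes, TMM factors were 0.8916 to 1.136, and the robust quasi-likelihood test had a prior count of 0.125, no covariates and Benjamini-Hochberg adjustment over all genes tested. On simulated data for 15232 genes the step called 149 of 195 changed genes in the right direction, and 8 unchanged genes. DESeq2 1.42.0 was an alternative, and plots used matplotlib 3.10.9. P-values measure the spread between 3 mice per group. An exact permutation test of 3 against 3 cannot go below 0.10. Gene positions and exon lengths came from GENCODE release 21 for mouse (GRCm38) and promoter sequences from RefSeq (GRCm38.p6). The deposited table holds no positions.

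The 10 genes and all lists were chosen with earlier results of these data known. Named were the 10 genes, called genes of the pathway and regulator lists, partners in ratios, the 3 profiles nearest to a called gene, and Hdac1 and Hdac2. Marker lists for epithelium, enterocytes, crypt progenitors, adipocytes, hepatocytes, immune cells and stroma were summed in each library. Alternatives changed the scaling, test, filter, prior count and limits and left out each mouse.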

Additional observations from a re-analysis of the deposited data

How the results depend on the processing

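Over 16 alternatives in scaling, test, filter, prior count or mice, Lpin2 had an adjusted p of at most 0.05 in 16, Pnpla2 in 15, Sar1b in 14, Dgat1 in 8, Cideb in 4, Mttp in 3, Mogat2 and Plin3 in 1 each, and Dgat2 and Mgll in 0. Mttp passed with upper quartile scaling, the DESeq2 Wald test and limma voom. Library totals moved the median of all genes to 0.18 (2463 genes increased, 1538 decreased) and pan-epithelial scaling to 0.21 (2520 and 1474). Pan-epithelial scaling left Sar1b and Dgat1 short of the limit, gave 8 of the 10 genes without overlap (6 lower and 2 higher, where 17.9% and 31.4% of all genes were) in place of 5, and gave 9 increased pathway genes. At least 10 counts in every sample gave 3. Enterocyte marker scaling, chosen after seeing the data, gave 4338 increased and 947 decreased genes, 0 of the 10 genes decreased (Lpin2 -0.80), 13 pathway genes increased and 6 decreased, and turned Mttp (0.12), Cideb (0.07), Dgat2 (0.15) and Mgll (0.52). Without the fold limit, 4 of the 10 genes were lower and 8 and 21 pathway genes were higher and lower. Mgll was 0.10 with library totals, 0.14 with pan-epithelial scaling and -0.19 to 0.06 with a mouse left out. The cause of these shifts was not tested. Of the 4 genes that met the adjusted p limit, leaving out a mouse took Dgat1 alone above it. Without C3, 1911 genes were increased. No paired analysis was possible because the names of the mice share at most 1 number (C1 and H1), which the labels tie to no litter, batch or day. Depth limits the precision for genes with few counts in some libraries, such as Plin4, Plin5 and G0s2. Their lowest counts were in control libraries, not in H5, the library with the lowest total.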

Other observations

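The remaining marker lists were summed in each library. The 8 crypt progenitor markers summed to 461.8 to 653.6 CPM in control mice and 240.3 to 437 CPM in Hdac1/2-deleted mice, with the stem cell genes Olfm4 (log2 fold change -1.58) and Lgr5 (-1.54) decreased. Without Olfm4 the other 7 summed to 196.9 to 336.2 and 185.7 to 315.7 CPM and overlapped. The proliferation genes Mki67 (0.35), Ccnb1 (0.42), Cdk1 (0.51), Top2a (-0.12) and Pcna (-0.49) did not pass. The 9 immune markers summed to 42.43 to 117.2 and 31.49 to 56.89 CPM and the 9 stroma markers to 6.191 to 39.27 and 4.791 to 10.5 CPM, overlapping in both cases. Among the immune markers Cd8a was decreased (-1.32), with groups that overlapped, and Cd4 increased (1.62). Among the stroma markers Acta2 (-6.74), Des (-6.26) and Dcn (-1.48) were decreased. The control C3-3 had only 0.6022 CPM of Acta2 and 0.6586 CPM of Des, against 11.09 to 14.13 CPM in C1 and C3. The 7 hepatocyte markers summed to 490.5 to 698.7 and 547.4 to 854.3 CPM, nearly all of it from Cps1, a gene that the small intestine also expresses. Within that list Hpx had 10, 3 and 0 counts in C1, C3 and C3-3 and 522, 564 and 438 counts in H1, H5 and H9, Ttr rose from 1.559 ± 0.2455 to 26.26 ± 22.87 CPM, and Serpina1a was increased too (3.13). In the same list Alb was decreased (-1.82, adjusted p = 0.0047), and Cyp2e1 had 75, 41 and 33 counts in the control mice and 0 in each Hdac1/2-deleted mouse. These markers were named after their values were seen.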
